A study of Mus musculus with 12 samples.

Results

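Epididymal white adipose tissue, the visceral fat pad beside the epididymis of male mice, was compared between a group labelled TET KO on a high-fat diet (HFD_TKO) and wild-type mice on a normal diet (ND_WT), all of strain C57BL/6. The comparison used 6 of the 12 libraries of the series, 3 biological replicates per group, and covered the 15597 genes, of 25229 with a symbol, that reached at least 0.5 CPM in at least 3 of the 12 libraries. CPM is the reads of a gene scaled to a common library total. The other 6 libraries, wild type on the high-fat diet (HFD_WT) and TET KO on the normal diet (ND_TKO), served as reference points. The series title places the loss of TET proteins in adipocytes and names protection against adiposity as its subject. The question here was which genes still differed between high-fat-fed TET KO fat and lean wild-type fat. Diet and genotype differed together in this comparison, so their parts in any one change cannot be told apart from it alone. The Cre driver, the deleted exons, the age of the mice, the length of the diet and the time of day of sampling are not given in the sources used here. Whether a replicate is 1 animal is not given either, so p-values measure the spread between these libraries.

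TET proteins (Tet1, Tet2 and Tet3) are enzymes that oxidise 5-methylcytosine in DNA, the first step of its active removal. White adipocytes store triglyceride in 1 large droplet, release it through lipolysis under beta-adrenergic control, and secrete hormones such as leptin and adiponectin. During high-fat feeding, epididymal fat of mice is known for enlarged adipocytes, matrix deposition and the arrival of macrophages. A whole fat pad was sequenced, so fewer cells of a type and less RNA per cell cannot be told apart in any result below.

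Recovered read totals ran from 20973140 to 25606629 per library. Replicates of the 2 groups differed by more than sampling noise in all 6 pairs (chi-square per degree of freedom 6.80 to 69.6), so each library counted as 1 sample. A pair of libraries stood apart within their groups. ND_WT replicate 3 lay at 25.7 on the first principal component of the 12 libraries, against 37.4 and 38.5 for the other ND_WT libraries. HFD_TKO replicate 1 lay at -44.2 on the second component, against -18.5 and -26.2. Defining adipocyte genes were abundant in all 12 libraries, and the epididymis markers that could be tested summed to at most 3.75 CPM in any library. Of 18 such markers 16 were below the minimum.

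High-fat TET KO fat differed from lean wild-type fat in 5472 of the 15597 genes (35.1%) at an adjusted p under 0.05 (limma, Benjamini-Hochberg). Of these, 3127 (20.0% of the genes tested) were higher in HFD_TKO and 2345 (15.0%) were lower. Most of the differences were small, with a median absolute log2 change of 0.55 among called genes and 2380 called genes below 0.5. A change of at least 2-fold was called for 382 genes higher (2.45%) and 418 lower (2.68%), and at least 4-fold for 44 and 51. The 3 libraries of each group did not overlap in 3914 genes on the higher side (25.1%) and 3047 on the lower side (19.5%). The 95% interval of the change lay wholly within 0.5 log2 units of zero in 6595 genes (42.3%). Changes are on the log2(CPM + 1) scale, where the change of low genes is understated, and the median over all tested genes was 0.02. Without ND_WT replicate 3, calls at 2-fold or more on the higher side rose to 577, and without ND_WT replicate 1 the calls on the lower side came to 1484. Without both ND_WT replicate 3 and HFD_TKO replicate 1 there were 3565 genes higher and 2249 lower.

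**Figure D1:**
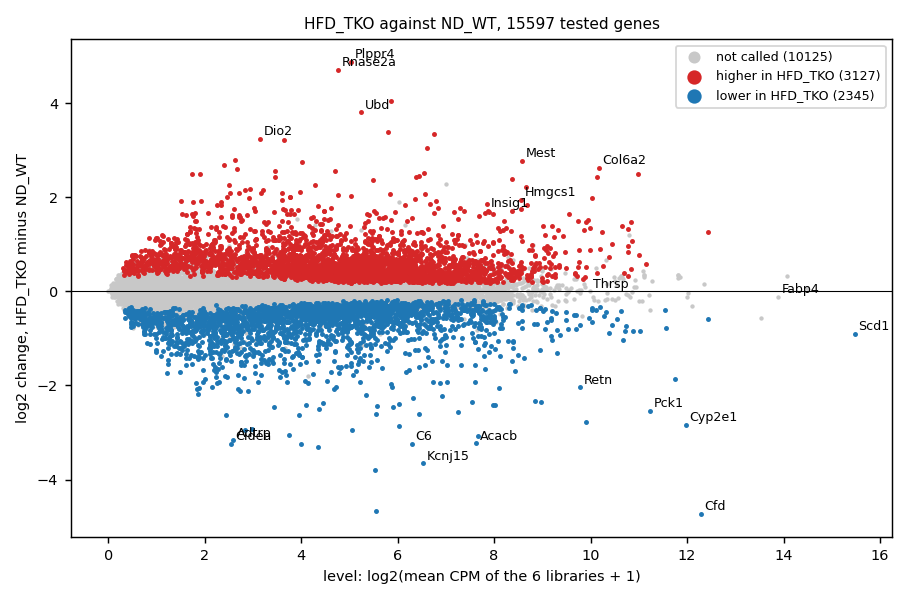
Each point is 1 of the 15597 tested genes: the x axis is log2 of the mean CPM of the 6 libraries plus 1, the y axis the log2 change of HFD_TKO minus ND_WT, and colour marks the 3127 genes called higher, the 2345 called lower and the rest. Cfd and Cyp2e1 are the most abundant of the genes that lie far below zero, Plppr4 and Rnase2a lie at the top, and the abundant genes Thrsp and Fabp4 lie near zero.

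The fit across all 4 groups also gave the wild-type diet comparison and the normal-diet genotype comparison. HFD_WT against ND_WT had 5892 genes higher (37.8%) and 3173 lower (20.3%), and ND_TKO against ND_WT had 337 higher (2.16%) and 552 lower (3.54%). All 3 comparisons share the ND_WT libraries, so their values are set side by side below and no overlap between them is read as a result. Against HFD_WT, HFD_TKO had 2365 genes higher (15.2%) and 4923 lower (31.6%). Against ND_TKO it had 2525 higher (16.2%) and 921 lower (5.90%). The plot of list medians sets 3 of these comparisons, those against ND_WT, side by side for the gene lists. Counts of list members in HFD_TKO against ND_WT stand beside 20.0% of all tested genes higher and 15.0% lower. A count near these shares is not a result about its list. The cholesterol, collagen and cell cycle lists had the highest medians in HFD_TKO, and the mesothelium list the lowest.

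**Figure D2:**
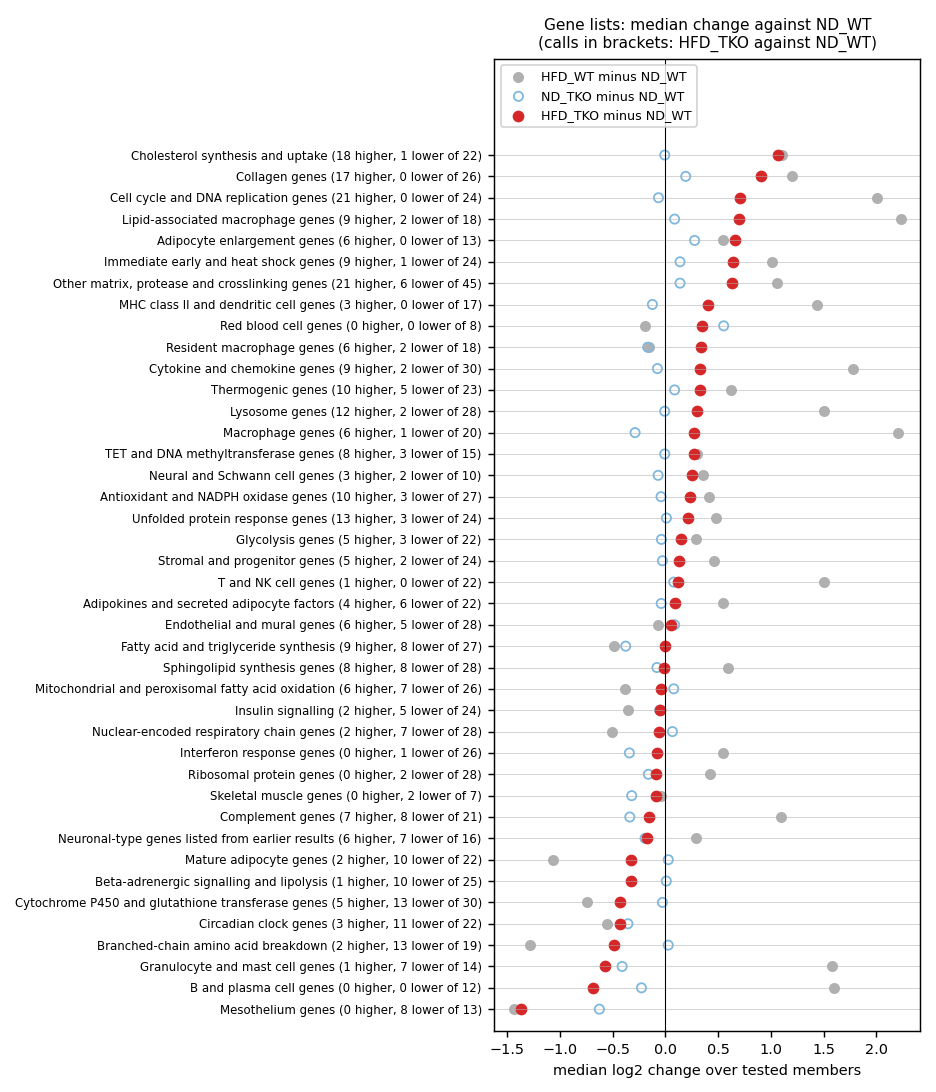
Each row is a gene list and each symbol the median log2 change over its tested members on the x axis, for HFD_TKO (red), HFD_WT (grey) and ND_TKO (open blue) against ND_WT; the calls in brackets are those of HFD_TKO. For macrophage genes the grey median is 2.21 and the red one 0.28, whereas for cholesterol genes they are 1.11 and 1.07.

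The TET genes themselves were read first as a check of the labels. Tet1 stood at 1.48, 0.415 and 0.822 CPM in the ND_WT libraries and at 3.07, 2.07 and 1.65 CPM in HFD_TKO (log2 change 0.79 with SE 0.21, adjusted p = 0.0123). Tet2 stood at 23.6, 18.4 and 14.7 CPM in ND_WT and 9.54, 13.4 and 10.7 CPM in HFD_TKO (log2 change -0.69 with SE 0.20, adjusted p = 0.0176). Tet3, the most abundant of these genes by CPM, stood at 42.0, 35.5 and 39.7 CPM in ND_WT and 61.0, 62.4 and 58.9 CPM in HFD_TKO (log2 change 0.63 with SE 0.09, adjusted p = 5.62e-04). None of the 3 genes overlapped between the groups. In ND_TKO Tet1 stood at 2.77, 2.22 and 2.98 CPM, above ND_WT (log2 change 0.97, adjusted p = 0.0185), and in HFD_WT at 0.860, 0.841 and 0.996 CPM, below HFD_TKO by 0.76 (adjusted p = 0.01). Tet2 stood at 15.1, 23.5 and 15.7 CPM in ND_TKO and 13.7, 16.2 and 17.8 CPM in HFD_WT, and neither TET KO group was called different from the wild type on its own diet (log2 change -0.06 and -0.47, adjusted p = 0.905 and 0.0662). Tet3 stood at 48.5, 49.1 and 40.0 CPM in ND_TKO and 64.6, 70.5 and 71.7 CPM in HFD_WT, again with no call between the genotypes on either diet (log2 change 0.22 and -0.18, adjusted p = 0.171 and 0.131). These are reads over the whole gene from all cells of the pad, and a deletion of some exons in 1 cell type need not lower them, so they do not check the labels. The Tet1 call was lost without ND_WT replicate 2 (0.59, adjusted p = 0.0514) and without HFD_TKO replicate 1 (0.62, adjusted p = 0.0505). The Tet2 call was lost without ND_WT replicate 1, HFD_TKO replicate 1 or HFD_TKO replicate 3.

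Among 15 genes that write, read or erase DNA methylation, 8 were higher and 3 lower in HFD_TKO. Dnmt3a, a methyltransferase that sets new methyl marks, rose from 43.8, 34.2 and 34.9 CPM to 83.5, 71.7 and 69.9 CPM (log2 change 0.98 with SE 0.13, adjusted p = 2.95e-04), and its mean was 151 CPM in HFD_WT and 37.0 CPM in ND_TKO. Uhrf1, which guides the copying of methylation after replication, rose from 3.91, 2.07 and 3.01 CPM to 9.49, 5.65 and 6.85 CPM (log2 change 1.06 with SE 0.19, adjusted p = 0.00184), with 20.5 CPM in HFD_WT. The 8 higher members came to 5 without ND_WT replicate 2, and the 3 lower ones to 1 without ND_WT replicate 1, HFD_TKO replicate 1 or HFD_TKO replicate 3.

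Genes of the mature adipocyte were on balance lower: 10 of 22 fell and 2 rose, with a median log2 change of -0.32. In HFD_WT the same list had 17 lower and 2 higher, with a median of -1.07. The 2 that rose were Gpd1, an enzyme of glycerol backbone (1.32, adjusted p = 1.48e-04), and the transcription factor Cebpb (1.20, adjusted p = 2.82e-04). Both were named after their values were seen. The fall was deep in a few secreted and lipid-handling genes and slight or not called in most of the others. Cfd (adipsin, a complement protease secreted by adipocytes, chr10:79890853-79892655) stood at 10483, 13059 and 5225 CPM in ND_WT and 149.9, 440.1 and 573 CPM in HFD_TKO (log2 change -4.73 with SE 0.47, adjusted p = 8.09e-05). Every HFD_TKO library lay far below every ND_WT library. Its mean was 152 CPM in HFD_WT and 2118 CPM in ND_TKO, and HFD_TKO was below ND_TKO (log2 change -2.59, adjusted p = 0.00373). Retn (resistin, chr8:3655770-3659818) stood at 1405, 1502 and 1317 CPM in ND_WT and 285, 377 and 372 CPM in HFD_TKO (log2 change -2.04 with SE 0.15, adjusted p = 1.11e-05). HFD_WT was lower again at 114 CPM, and HFD_TKO exceeded it by 1.59 on the log2 scale (adjusted p = 4.51e-06).

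Of the 22 mature adipocyte genes 10 were not called, and 4 had a 95% interval within 0.5 log2 units, beside 42.3% of all genes. Adipoq (adiponectin) was at 5025, 5106 and 4437 CPM in ND_WT and 3004, 4293 and 4548 CPM in HFD_TKO, a change of -0.32 that did not pass (95% interval -0.67 to 0.03, adjusted p = 0.138). The groups overlapped, and HFD_TKO replicate 1 was the lowest of the 6. In HFD_WT Adipoq averaged 1429 CPM, and HFD_TKO stood above that by 1.44 (adjusted p = 1.70e-05). Pparg, the nuclear receptor that drives adipocyte differentiation, had a change of -0.21 (95% interval -0.44 to 0.03, adjusted p = 0.151). Cidec, a protein that enlarges lipid droplets, had a change of -0.12 (interval -0.46 to 0.21). Lpl, which frees fatty acids from circulating lipoproteins, had means of 15304 CPM in ND_WT and 19269 CPM in HFD_TKO, a change of 0.33 that was not called (adjusted p = 0.201). Cd36, a fatty acid transporter, stood at 4884, 5107 and 4885 CPM in ND_WT and 5641, 5612 and 5409 CPM in HFD_TKO, a change of 0.16 that was not called (adjusted p = 0.318) although the libraries did not overlap. Cebpa, a partner of Pparg, fell by 0.46 (adjusted p = 0.00902).

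The result for leptin, the satiety hormone of adipocytes, depended on 1 library. Lep stood at 689, 495 and 2588 CPM in ND_WT and 3001, 1927 and 1891 CPM in HFD_TKO. ND_WT replicate 3 lay among the high-fat libraries, so the groups overlapped and the change of 1.21 was not called (adjusted p = 0.0644). Without that library the change was 1.92 (adjusted p = 1.79e-04). Sfrp5, a secreted Wnt antagonist of adipocytes, behaved likewise, at 16.9, 7.79 and 244 CPM in ND_WT and 143, 171 and 178 CPM in HFD_TKO. Its change was 2.28 (adjusted p = 0.0601) with that library and 3.71 (adjusted p = 1.01e-05) without it. Mest, an imprinted gene known to rise as fat expands, stood at 66.2, 47.5 and 221 CPM in ND_WT and 974, 511 and 458 CPM in HFD_TKO (log2 change 2.77 with SE 0.45, adjusted p = 0.0011), with means of 874 CPM in HFD_WT and 490.4 CPM in ND_TKO. Of 13 genes linked to adipocyte enlargement 6 rose and none fell, with a median of 0.66, and without ND_WT replicate 3 the count was 11. Nrg4, a secreted growth factor of adipocytes, fell from 136, 128 and 130.2 CPM to 26.7, 28.1 and 24.5 CPM (log2 change -2.27 with SE 0.16, adjusted p = 1.11e-05). Angptl8, a secreted regulator of lipoprotein lipase, rose from 4.53, 3.55 and 3.79 CPM to 73.5, 12.9 and 12.1 CPM (log2 change 2.27, adjusted p = 0.00544), with HFD_TKO replicate 1 far above the others.

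**Figure D3:**
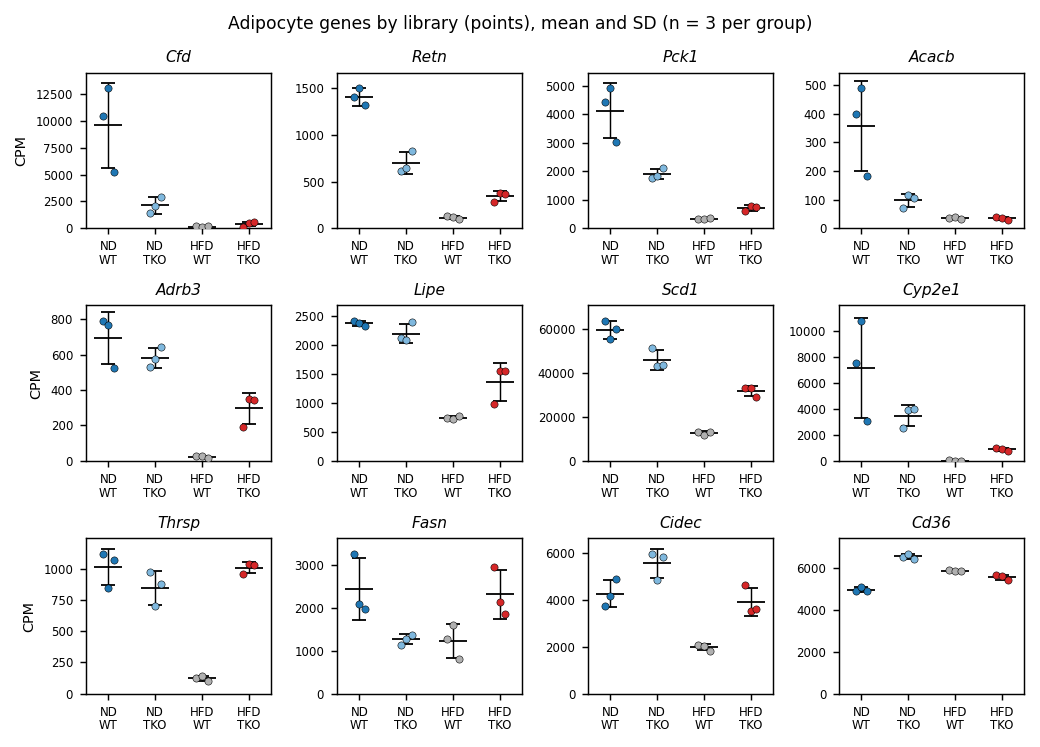
Points are CPM per library (y axis, linear, from 0) for 12 adipocyte genes in the 4 groups on the x axis, with the group mean and SD (n = 3). Cfd, Retn, Pck1 and Acacb are high in ND_WT and low in HFD_TKO, Adrb3 and Lipe lie between the ND_WT and HFD_WT levels, and Thrsp and Fasn overlap between ND_WT and HFD_TKO.

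Genes of beta-adrenergic signalling and lipolysis fell in 10 of 25 cases and rose in 1, with a median of -0.33. Adrb3, the beta3-adrenergic receptor of adipocytes (chr8:27225776-27230845), stood at 791, 766 and 525 CPM in ND_WT and 194, 350.2 and 346 CPM in HFD_TKO (log2 change -1.25 with SE 0.23, adjusted p = 0.00206). The groups did not overlap. HFD_WT held 26.2, 25.6 and 18.1 CPM, and HFD_TKO exceeded it by 3.58 on the log2 scale (adjusted p = 3.64e-07). The triglyceride lipase Pnpla2 averaged 2691 ± 515 CPM (SD, n = 3) in ND_WT and 1488 ± 190.3 CPM in HFD_TKO, and fell by 0.84 (adjusted p = 0.00151). The hormone-sensitive lipase Lipe fell by 0.83, from 2415, 2383 and 2327 CPM to 985, 1549 and 1554 CPM (adjusted p = 0.00208). Plin1, which coats the droplet and gates lipolysis, fell by 0.33 (adjusted p = 0.0186), a call lost without ND_WT replicate 1, ND_WT replicate 2 or HFD_TKO replicate 1. The receptor Adrb1 fell from a mean of 4.68 to 1.82 CPM (adjusted p = 8.66e-04). Some genes that restrain lipolysis fell as well. They were Pde3b, Pde4b and Pde4d, which break down cyclic AMP (-0.66, -0.71 and -0.73), and the receptors Adora1 (-0.36) and Hcar2 (-1.05). Other restraining genes, G0s2 (0.28), Adra2a (0.18) and Hcar1 (-0.69), were not called (adjusted p = 0.0644, 0.423 and 0.160). The 1 higher member, Ptger3 (0.86, adjusted p = 0.0454), is also a restraining receptor. With TMM scaling, edgeR or DESeq2 the higher count was 0. These restraining genes were named after their values were seen. The count of 10 lower members came to 6 without ND_WT replicate 1 and to 12 without ND_WT replicate 3.

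Fatty acid and triglyceride synthesis split into members that fell (8 of 27), members that rose (9) and members that were not called, with a median of 0.00. Among those that fell, Acacb, the acetyl-CoA carboxylase of the mitochondrial surface, dropped from 399.5, 488 and 184 CPM to 38.4, 35.3 and 29.6 CPM (log2 change -3.23 with SE 0.29, adjusted p = 4.93e-05), and HFD_WT held 37.0, 39.9 and 32.7 CPM. HFD_TKO and HFD_WT were not called different for this gene (log2 change -0.09, 95% interval -0.73 to 0.55, adjusted p = 0.838). Pck1, whose product makes glycerol backbone for triglyceride in fat (chr2:173153073-173159274), dropped from 4426, 4912 and 3034 CPM to 586, 774 and 747 CPM (log2 change -2.53 with SE 0.17, adjusted p = 5.33e-06). Acaca, the cytosolic acetyl-CoA carboxylase of fatty acid synthesis, also fell (log2 change -1.30 with SE 0.32, adjusted p = 0.00883). Gpd1, which like Pck1 serves glycerol backbone, was among the members that rose (1.32, adjusted p = 1.48e-04). Acaca and Gpd1 were named after their values were seen. Elovl6, which elongates palmitate, fell by 1.10 (adjusted p = 0.00156). Scd1, the desaturase with the highest CPM of all genes tested, stood at 63476, 55115 and 59748 CPM in ND_WT and 33247, 33099 and 29025 CPM in HFD_TKO (log2 change -0.90 with SE 0.26, adjusted p = 0.0189). The Scd1 call was lost with TMM scaling (adjusted p = 0.0611), without ND_WT replicate 1 (0.0578) and without HFD_TKO replicate 3 (0.0604), with a change between -0.93 and -0.84 in these settings.

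Several genes of the lipogenic core had changes near zero, but Acaca, given above, did not. Thrsp, a lipogenic cofactor, stood at 1119, 848 and 1072 CPM in ND_WT and 957, 1033 and 1030.3 CPM in HFD_TKO, a change of 0.00 with a 95% interval of -0.32 to 0.32. In HFD_WT Thrsp held 126, 138 and 102 CPM, and HFD_TKO exceeded that by 3.05 (adjusted p = 6.58e-08). Fasn, the fatty acid synthase, had a change of -0.07, with an interval of -0.63 to 0.50 that was not within 0.5 log2 units. Srebf1, the transcription factor of lipogenesis, had a change of -0.01 (interval -0.25 to 0.23). Mlxipl, the carbohydrate-responsive factor, fell by 0.55 (adjusted p = 0.00783). Acly, which makes cytosolic acetyl-CoA, rose from 492, 254 and 296 CPM to 661, 525 and 530.0 CPM (log2 change 0.77 with SE 0.20, adjusted p = 0.0134), a call lost without ND_WT replicate 2 or HFD_TKO replicate 1. Scd2 rose from 487, 237 and 668 CPM to 1745, 995 and 1001 CPM (log2 change 1.49 with SE 0.32, adjusted p = 0.00437). The 9 higher members came to 5 without ND_WT replicate 2.

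Insulin signalling had 5 of 24 members lower and 2 higher, beside 15.0% and 20.0% of all tested genes, with a median of -0.05. Slc2a4, the insulin-responsive glucose transporter GLUT4, fell from 280.4, 219.6 and 215 CPM to 119, 172 and 162 CPM (log2 change -0.66 with SE 0.14, adjusted p = 0.00378). HFD_WT held 35.7, 34.3 and 39.8 CPM, and HFD_TKO exceeded it in every library (adjusted p = 5.11e-07). Insr and Irs1, the receptor and its first substrate, were called lower (adjusted p = 0.0468 and 0.0245), but both overlapped between the groups and both calls were lost without ND_WT replicate 1, ND_WT replicate 2 or HFD_TKO replicate 1. The 5 lower members came to 3 without ND_WT replicate 1 or without ND_WT replicate 2.

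Mitochondrial genes stayed near lean wild-type levels, and amino acid breakdown did not. Of 28 nuclear-encoded respiratory chain genes, 21 had a 95% interval within 0.5 log2 units, 7 were lower and 2 higher, with a median of -0.07. In HFD_WT 22 of the 28 were lower, with a median of -0.51, and HFD_TKO stood above HFD_WT in 26. Atp5b, the ATP synthase beta subunit, stood at 1813, 1869.9 and 1510.1 CPM in ND_WT and 1832, 1639 and 1537 CPM in HFD_TKO, a change of -0.05 (interval -0.29 to 0.19), with a mean of 1136 CPM in HFD_WT. The 7 lower members came to 4 or 3 without ND_WT replicate 1, ND_WT replicate 2, HFD_TKO replicate 2 or HFD_TKO replicate 3. Of 26 genes of fatty acid oxidation, 14 lay within the same bounds, 6 rose and 7 fell. Cpt1a, which admits fatty acids to mitochondria, rose by 0.72 (adjusted p = 0.00136). The 7 lower members of this list came to 4 without ND_WT replicate 1, ND_WT replicate 2 or HFD_TKO replicate 3.

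Branched-chain amino acid breakdown was lower in 13 of 19 members and higher in 2, with a median of -0.49. HFD_WT had 18 lower and a median of -1.29, and HFD_TKO stood above HFD_WT in 15 of the 19. Ivd, which acts on the leucine branch, fell from 406, 367 and 315 CPM to 146, 168 and 149 CPM (log2 change -1.22 with SE 0.11, adjusted p = 4.93e-05). Aldh6a1, of the valine branch, fell from 881, 870.3 and 599 CPM to 322, 439 and 385 CPM (log2 change -1.02 with SE 0.16, adjusted p = 7.58e-04). Ppm1k, the phosphatase that activates the pathway's dehydrogenase, fell by 1.15 (adjusted p = 3.64e-04). The HFD_TKO libraries of all 3 genes lay below every ND_WT library. The counts of lower members stayed between 12 and 15 with any 1 library left out.

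Cytochrome P450 and glutathione transferase genes fell in 13 of 30 cases and rose in 5, with a median of -0.43. Cyp2e1, an ethanol- and fatty-acid-oxidising P450, stood at 7558, 10777 and 3094 CPM in ND_WT and 988, 937 and 736 CPM in HFD_TKO (log2 change -2.84 with SE 0.42, adjusted p = 6.03e-04). In HFD_WT it held only 28.5, 16.9 and 10.6 CPM, so HFD_TKO lay between the wild-type groups and exceeded HFD_WT by 5.59 (adjusted p = 9.08e-07). Gpx3, a secreted glutathione peroxidase, fell from 860.2, 1043 and 627 CPM to 117, 203 and 175 CPM (log2 change -2.35 with SE 0.23, adjusted p = 7.79e-05), below the 355 CPM of HFD_WT. The 5 higher P450 and transferase members came to 1 without ND_WT replicate 2, 2 without ND_WT replicate 1 and 3 without HFD_TKO replicate 1 or HFD_TKO replicate 3.

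Cholesterol synthesis had the largest share of higher members among the metabolic lists. Of 22 tested genes, 18 rose and 1 fell, with a median of 1.07. HFD_WT had 19 higher with a median of 1.11, whereas ND_TKO had none called and a median of -0.01. HFD_TKO was above ND_TKO in 20 of the 22 and, against HFD_WT, above in 1 and below in 5. Cells make cholesterol from acetyl-CoA, and the pathway's genes are known targets of the factor SREBF2, which works with the CCAAT-binding factor NF-Y. The promoters of the 3 genes with the largest rise are shown because these genes moved together. Each window is RefSeq sequence of build GRCm38.p6 around the annotated start, read 5′ to 3′ along the gene, limited to the motifs and 35 bases on either side, with CCAAT boxes (CCAAT, or ATTGG on the other strand) in capitals, and in Hmgcs1 also a sterol response element.
Hmgcs1 (chr13:119690101-119690400, plus strand): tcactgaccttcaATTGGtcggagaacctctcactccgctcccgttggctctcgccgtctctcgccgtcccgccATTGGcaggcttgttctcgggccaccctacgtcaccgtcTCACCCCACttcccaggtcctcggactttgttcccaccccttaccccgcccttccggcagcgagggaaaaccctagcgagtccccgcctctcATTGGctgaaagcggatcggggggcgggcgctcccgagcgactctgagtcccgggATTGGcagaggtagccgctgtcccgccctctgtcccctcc
Insig1 (chr5:28071162-28071235, plus strand): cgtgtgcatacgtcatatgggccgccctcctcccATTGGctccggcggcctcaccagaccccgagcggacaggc
Hsd17b7 (chr1:169969178-169969405, minus strand): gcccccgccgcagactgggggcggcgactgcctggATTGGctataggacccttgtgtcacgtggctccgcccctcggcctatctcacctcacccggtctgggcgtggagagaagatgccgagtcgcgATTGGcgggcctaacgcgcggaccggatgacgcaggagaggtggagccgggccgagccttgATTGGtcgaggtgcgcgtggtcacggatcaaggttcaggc

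CCAAT on either strand was found in 15 of the 18 RefSeq promoter windows of cholesterol genes (83.3%), each window reaching from 250 bases before the start to 50 after it, and all 15 genes with an entry had it in at least 1 window. Among all 32851 windows of the table it was found in 37.4%. The sterol response element, searched as TCACCCCAC on both strands, was found in 1 window, that of Hmgcs1, and in 0.551% of all. This motif, its shorter form CACCCCAC, which lies within it, and the CCAAT search in these genes were added after the values were seen.

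Hmgcs1, the synthase that begins the pathway (chr13:119690351-119708260), stood at 129, 117 and 198 CPM in ND_WT and 945, 419 and 441 CPM in HFD_TKO (log2 change 1.95 with SE 0.29, adjusted p = 6.33e-04). Insig1, the sterol sensor that holds SREBF proteins in the endoplasmic reticulum, stood at 126, 88.1 and 102 CPM in ND_WT and 509, 279 and 288 CPM in HFD_TKO (log2 change 1.72 with SE 0.21, adjusted p = 2.43e-04). Hsd17b7, a late enzyme of the pathway, rose from 5.39, 3.0 and 8.85 CPM to 25.8, 15.7 and 16.5 CPM (log2 change 1.65 with SE 0.27, adjusted p = 0.00116). HFD_TKO replicate 1 was the highest of the 12 libraries for all 3 genes. The groups did not overlap, and the list had 15 members higher without HFD_TKO replicate 1.

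**Figure D4:**
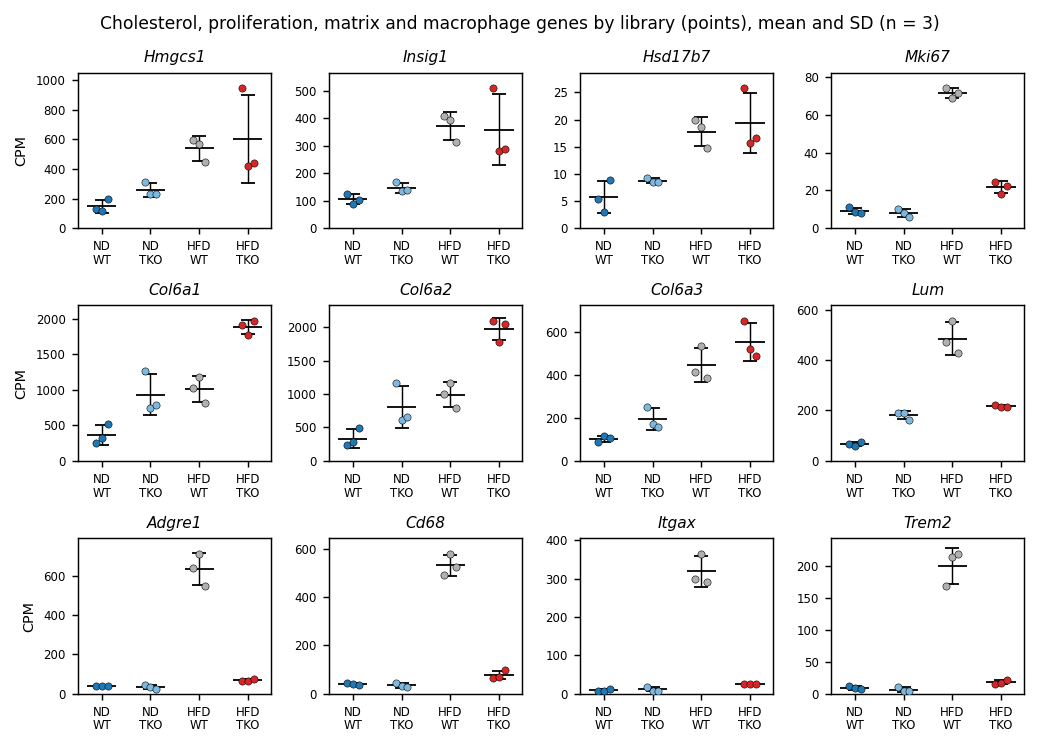
Points are CPM per library (y axis, linear, from 0) in the 4 groups on the x axis, with the group mean and SD (n = 3), for genes of cholesterol synthesis, proliferation (Mki67), matrix and macrophages. The cholesterol genes of HFD_TKO reach the HFD_WT range and Col6a1 and Col6a2 lie above it, whereas the macrophage genes of HFD_TKO lie just above ND_WT and far below HFD_WT.

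Collagen genes rose in 17 of 26 cases and none fell, with a median of 0.90. HFD_WT had 19 higher and 2 lower, with a median of 1.20, and ND_TKO had 7 higher and a median of 0.19. Collagen VI, a beaded-filament collagen around adipocytes, led the list. Col6a1 (chr10:76708792-76726044) stood at 256, 315 and 522 CPM in ND_WT and 1921, 1774 and 1971 CPM in HFD_TKO (log2 change 2.44 with SE 0.25, adjusted p = 1.10e-04). Col6a2, its neighbour on chromosome 10, stood at 232, 280.4 and 490.5 CPM and 2097, 1788 and 2047 CPM (log2 change 2.63 with SE 0.28, adjusted p = 1.26e-04), and Col6a3 at 88.8, 116 and 106 CPM and 651, 519.6 and 486 CPM (log2 change 2.40 with SE 0.18, adjusted p = 1.46e-05). Col6a1 and Col6a2 were also above HFD_WT, by 0.92 (adjusted p = 0.0111) and 1.01 (0.0115), and above ND_TKO, by 1.06 (0.0131) and 1.35 (0.00705). The fibrillar collagens moved less: Col3a1 rose by 0.97 (adjusted p = 0.00184) and Col1a1 by 0.59 (adjusted p = 0.0279), and Col1a1 stayed below HFD_WT (log2 change -0.95, adjusted p = 0.00118). The Col1a1 call was lost without ND_WT replicate 1, HFD_TKO replicate 1 or HFD_TKO replicate 3.

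Of 45 other matrix genes 21 rose and 6 fell, with a median of 0.63, and the 6 came to 3 without ND_WT replicate 1 or 2 and to 2 without HFD_TKO replicate 1. Sparc, a collagen-binding glycoprotein, rose from 2626, 2618 and 4715 CPM to 7882, 7469 and 7654 CPM (log2 change 1.27 with SE 0.23, adjusted p = 0.00202). Lum, a collagen-spacing proteoglycan, rose from 67.3, 58.9 and 75.4 CPM to 223, 214 and 214 CPM (log2 change 1.68 with SE 0.11, adjusted p = 5.33e-06), and ND_TKO held 189.5, 192 and 162 CPM. HFD_TKO and ND_TKO were not called different for Lum (log2 change 0.27, 95% interval 0.02 to 0.51, adjusted p = 0.109), and both lay below HFD_WT. Postn (periostin) rose from 93.5, 97.2 and 105 CPM to 428, 294 and 364 CPM (log2 change 1.85 with SE 0.17, adjusted p = 4.86e-05), and Ccn2 (connective tissue growth factor) by 2.44 (adjusted p = 0.00171). Timp1, a protease inhibitor, rose by 1.28 (adjusted p = 0.00873) and stayed below HFD_WT. Mmp14, a membrane protease, was called lower (-0.39, adjusted p = 0.0318), and that call was lost without any 1 of 5 libraries, all but ND_WT replicate 3. Larger falls were those of the proteoglycan Fmod (-1.67, adjusted p = 0.00414) and the protease inhibitor Timp4 (-1.22, adjusted p = 0.00586). The proteoglycan Dcn (-0.53), Mmp9 (-0.47) and Timp2 (-0.30) were the remaining lower members (adjusted p = 0.0199, 0.0345 and 0.0469). All these besides Mmp14 were named after their values were seen. Among 24 stromal and progenitor genes, 5 rose and 2 fell, with a median of 0.13. Sema3c rose by 1.54 and Fap by 1.22 (adjusted p = 2.01e-04 and 7.14e-04), and the stem cell marker Cd34 had a change of -0.00 (interval -0.24 to 0.23). The 2 that fell were the progenitor marker Pdgfra (-0.51, adjusted p = 0.0209) and F3 (-0.62, adjusted p = 0.00403), both named after their values were seen. The lower count was 1 without ND_WT replicate 2 or HFD_TKO replicate 1 and 4 without HFD_TKO replicate 2. Without ND_WT replicate 3 the stromal count was 8 higher.

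Of 20 general macrophage genes 6 rose (beside 20.0% of all genes tested), 1 fell and 13 were not called, with a median of 0.28, against 15 higher and a median of 2.21 in HFD_WT. HFD_TKO lay below HFD_WT in 15 of the 20. The lower member was Cd14, the lipopolysaccharide co-receptor of monocytes and macrophages (-0.64, adjusted p = 0.0272). Adgre1 (F4/80, chr17:57358581-57483529) stood at 39.7, 38.8 and 40.6 CPM in ND_WT and 64.8, 66.4 and 73.7 CPM in HFD_TKO (log2 change 0.77 with SE 0.18, adjusted p = 0.00725), and HFD_WT held 642, 715 and 549 CPM. The macrophage membrane protein Cd68 rose from 43.0, 41.6 and 37.2 CPM to 66.4, 67.6 and 96.7 CPM (log2 change 0.89 with SE 0.17, adjusted p = 0.00292). Itgax (CD11c) rose from 6.77, 7.93 and 12.8 CPM to 23.8, 24.5 and 25.8 CPM (log2 change 1.38 with SE 0.26, adjusted p = 0.00229), and HFD_WT averaged 318 CPM. For these 3 genes no HFD_TKO library overlapped ND_WT or HFD_WT. Lyz2, the lysozyme of myeloid cells and the most abundant member, had a change of 0.04 (interval -0.34 to 0.43).

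Genes of lipid-associated macrophages, the cells that gather around dying adipocytes, rose in 9 of 18 cases and fell in 2, with a median of 0.70 against 2.23 in HFD_WT. The 2 that fell were Acp5, an acid phosphatase (-1.07, adjusted p = 1.34e-04), and Apoe, a lipid-carrying apolipoprotein (-0.77, adjusted p = 0.00159). Lpl and Cd36 of this list were also on the mature adipocyte list, and neither was called. The cells that the RNA of this list came from were not tested. Acp5, Apoe, Cd14, Gas6 and Timd4 were named after their values were seen. Trem2, the lipid receptor of these macrophages, was at 11.2, 8.44 and 6.43 CPM in ND_WT and 15.3, 16.1 and 21.9 CPM in HFD_TKO (log2 change 0.97 with SE 0.31, adjusted p = 0.029), a call lost without ND_WT replicate 2, ND_WT replicate 3 or HFD_TKO replicate 3. Atp6v0d2, a proton pump subunit, rose from 10.9, 7.93 and 5.34 CPM to 23.4, 28.9 and 40.2 CPM (log2 change 1.83 with SE 0.34, adjusted p = 0.00201), and HFD_WT averaged 345 CPM. Mmp12, the macrophage elastase, rose from 17.3, 19.6 and 23.0 CPM to 50.7, 71.3 and 85.1 CPM (log2 change 1.72 with SE 0.38, adjusted p = 0.00537), and HFD_WT averaged 782 CPM. Lysosome genes rose in 12 of 28 cases and fell in 2 (median 0.30), whereas in HFD_WT 27 of the 28 rose. Among resident macrophage genes 6 of 18 rose and 2 fell (median 0.34). The lower members were Vsig4, a complement receptor, at 2.19, 12.4 and 2.60 CPM in ND_WT and 1.35, 1.42 and 1.42 CPM in HFD_TKO (log2 change -1.16 with SE 0.40, adjusted p = 0.041), and Gas6, a ligand of receptors for dying cells (-0.56, adjusted p = 0.0171). For Vsig4, ND_WT replicate 2 stood far above its replicates, the change without it was -0.50 (adjusted p = 0.0165), and the call was lost without any 1 of the HFD_TKO libraries. Timd4, another resident marker, had a change of -0.60 (adjusted p = 0.166). Mgl2, a lectin of resident macrophages, stood at 30.3, 31.8 and 51.7 CPM in ND_WT, 99.1, 66.5 and 75.2 CPM in HFD_TKO (log2 change 1.08 with SE 0.20, adjusted p = 0.00183) and 14.4, 14.2 and 13.5 CPM in HFD_WT. The resident count was unstable, at 2 higher without ND_WT replicate 1 or 2, 3 without HFD_TKO replicate 2 or 3 and 10 higher without ND_WT replicate 3.

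Cytokine and chemokine genes rose in 9 of 30 cases and fell in 2, with a median of 0.33 against 1.78 in HFD_WT. Ccl2, which attracts monocytes, rose from 2.19, 2.17 and 3.74 CPM to 11.8, 9.19 and 13.6 CPM (log2 change 1.77 with SE 0.19, adjusted p = 1.19e-04), with 20.9 CPM in HFD_WT. Tnf was at or below 0.884 CPM in all 6 libraries with a change of 0.03 (interval -0.37 to 0.43). Interferon response genes had 0 of 26 higher and 1 lower, T and NK cell genes 1 of 22 higher and B and plasma cell genes 0 of 12 in either direction. In HFD_WT the same 3 lists had 16, 20 and 9 members higher. The lone T and NK cell gene was Il7r, a cytokine receptor, at 3.77, 4.10 and 4.20 CPM in ND_WT and 8.47, 13.4 and 17.6 CPM in HFD_TKO (log2 change 1.44 with SE 0.24, adjusted p = 0.00131). MHC class II and dendritic cell genes had 3 of 17 higher, and this count was 0 when ND_WT replicate 1 was left out and 9 when ND_WT replicate 3 was.

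Of 14 tested granulocyte and mast cell genes, 7 were lower in HFD_TKO and 1 higher, with a median of -0.57, whereas in HFD_WT 12 were higher. The 7 were 6 mast cell genes (Tpsb2, Cma1, Mcpt4, Cpa3, Fcer1a and Ms4a2) and the neutrophil elastase Elane (-0.72, adjusted p = 0.0278), and the higher one was the mast cell receptor Kit (0.65, adjusted p = 0.0173). The granulocyte genes S100a8 (0.61), S100a9 (-0.42), Csf3r (0.26), Siglecf (0.14) and Ccr3 (0.29) were not called. Elane, Kit and these 5 genes were chosen after their values were seen. Mcpt4 stood at 14.5, 17.8 and 8.99 CPM in ND_WT and 3.30, 3.86 and 6.03 CPM in HFD_TKO (log2 change -1.44 with SE 0.24, adjusted p = 0.00123), and HFD_WT averaged 57.4 CPM. Tpsb2 and Cma1 fell by 1.52 and 1.47 (adjusted p = 0.00133 and 0.00341). The HFD_TKO libraries lay below all ND_WT libraries in Mcpt4, Tpsb2 and Cma1, which belong to families of similar sequence. The list's summed level was 56.2 to 90.0 CPM in ND_WT, 41.2 to 46.0 CPM in HFD_TKO and 253.6 to 314.8 CPM in HFD_WT. Without ND_WT replicate 2 the count of lower members was 4.

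Complement genes split, with 7 of 21 higher and 8 lower. The 7 were Itgax (1.38), Cd55 (0.88), C5ar1 (0.73), C1qa (0.59), C3ar1 (0.50), C1qc (0.45) and C1qb (0.43). All of these besides Itgax were named after their values were seen. C2, of the classical pathway, fell from 326, 383 and 221 CPM to 35.5, 76.8 and 74.1 CPM (log2 change -2.34 with SE 0.28, adjusted p = 2.20e-04). C6, of the membrane attack complex (chr15:4727067-4804045), fell from 144, 156 and 123 CPM to 20.0, 12.1 and 11.3 CPM (log2 change -3.23 with SE 0.18, adjusted p = 1.72e-06). HFD_TKO was below HFD_WT (-1.60, adjusted p = 2.49e-05) and below ND_TKO (-1.84, adjusted p = 5.34e-04) as well, and its 3 C6 values were the lowest of the 12 libraries. The list's summed level was 10921 to 18659 CPM in ND_WT, 3780.4 to 4825 CPM in HFD_TKO and 11607 to 12672 CPM in HFD_WT, and the list holds Cfd. The 7 higher members came to 3 without ND_WT replicate 1 or HFD_TKO replicate 3 and 4 without HFD_TKO replicate 1, and the 8 lower ones to 5 without ND_WT replicate 1.

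Cell cycle and DNA replication genes rose in 21 of 24 cases and none fell, with a median of 0.71. In HFD_WT all 24 rose, with a median of 2.01, and in ND_TKO none was called. Top2a, the mitotic topoisomerase, rose from 5.34, 6.73 and 5.93 CPM to 20.9, 14.6 and 20.1 CPM (log2 change 1.47 with SE 0.17, adjusted p = 1.62e-04), and HFD_WT averaged 62.4 CPM. Mki67, a marker of dividing cells, rose from 11.2, 8.48 and 7.99 CPM to 24.7, 18.2 and 22.3 CPM (log2 change 1.16 with SE 0.17, adjusted p = 5.84e-04) against 71.7 CPM in HFD_WT. The replication clamp Pcna was called at 0.28 (adjusted p = 0.0301), but overlapped between the groups and lost its call without ND_WT replicate 2, ND_WT replicate 3, HFD_TKO replicate 1 or HFD_TKO replicate 3. The summed level of the list was 188.0 to 199.9 CPM in ND_WT and 249.5 to 309.8 CPM in HFD_TKO. CCAAT was found in 17 of 21 RefSeq promoter windows of the list (81.0%, against 37.4% of all windows) and the motif TTTGAA in 8 (38.1%, against 17.9%). The E2F motif TTCCCGCC was found in 1 (4.76%, against 2.19% of all windows). Cdkn1a (p21), which arrests the cycle and belongs to another list, rose from 10.6, 12.3 and 51.3 CPM to 207, 138 and 158 CPM (log2 change 3.05 with SE 0.46, adjusted p = 6.78e-04). Which cells the cell cycle RNA came from was not tested.

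Circadian clock genes were lower in 11 of 22 cases and higher in 3, with a median of -0.43. ND_TKO had 7 lower and a median of -0.36, and HFD_WT 13 lower and 4 higher with a median of -0.56. The clock is a loop in which the activators CLOCK and ARNTL bind E-boxes (CACGTG) and raise their own repressors and output genes. The sampling time of the groups was not given, so a shift of phase, a difference in collection time and a change in mean level cannot be told apart. E-box windows of 3 members that fell and hold the motif are shown, from RefSeq GRCm38.p6 along the gene's strand, with each CACGTG in capitals.
Bhlhe41 (chr6:145865533-145865608, minus strand): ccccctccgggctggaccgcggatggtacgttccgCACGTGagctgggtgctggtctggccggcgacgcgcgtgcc
Ciart (chr3:95882232-95882379, minus strand): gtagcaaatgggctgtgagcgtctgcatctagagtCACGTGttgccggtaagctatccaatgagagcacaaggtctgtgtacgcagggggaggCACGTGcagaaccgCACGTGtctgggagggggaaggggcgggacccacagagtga
Tef (chr15:81802511-81802586, plus strand): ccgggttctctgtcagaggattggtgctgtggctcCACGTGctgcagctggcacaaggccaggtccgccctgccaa

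Bhlhe41, a clock repressor with the first of these windows, stood at 61.5, 53.7 and 44.0 CPM in ND_WT and 13.4, 18.4 and 15.6 CPM in HFD_TKO (log2 change -1.68 with SE 0.13, adjusted p = 1.64e-05). Ciart, a repressor with 3 E-boxes in its window, fell from 11.7, 9.03 and 10.6 CPM to 2.28, 4.59 and 4.20 CPM (log2 change -1.32 with SE 0.21, adjusted p = 9.99e-04). Tef, an output transcription factor, fell from 304, 290.1 and 283 CPM to 121, 171 and 160.2 CPM (log2 change -0.97 with SE 0.12, adjusted p = 2.27e-04). None of these 3 genes overlapped between the groups. CACGTG was found in 6 of 26 windows of clock genes (23.1%) and in 7.15% of all windows. TTATGTAA, the site of the output factors, was found in 1 of the 26 (3.85%, against 0.938% of all windows). The count of lower members stayed between 10 and 12 with any 1 library left out.

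A set of genes followed the genotype label on both diets. Kcnj15, a potassium channel (chr16:95257558-95300260), stood at 172, 174 and 159.8 CPM in ND_WT, 98.8, 77.4 and 85.9 CPM in HFD_WT, 15.9, 19.5 and 14.8 CPM in ND_TKO and 9.07, 17.6 and 12.1 CPM in HFD_TKO (log2 change -3.65 with SE 0.18, adjusted p = 8.18e-07). The 2 TET KO groups were not called different (log2 change -0.39, 95% interval -0.79 to 0.01, adjusted p = 0.153), and HFD_TKO was below HFD_WT (log2 change -2.70, adjusted p = 4.76e-07), as ND_TKO was below ND_WT (-3.27, adjusted p = 2.10e-06). Ucp3, a mitochondrial carrier, stood at 33.4, 33.6 and 35.5 CPM in ND_WT and 6.65, 4.92 and 4.34 CPM in HFD_TKO (log2 change -2.50 with SE 0.13, adjusted p = 8.18e-07), with 7.29, 6.39 and 6.13 CPM in ND_TKO and 26.6, 23.5 and 24.8 CPM in HFD_WT. Adtrp, which cleaves esters between fatty acids and hydroxy fatty acids, fell from 8.25, 11.2 and 9.95 CPM to 0.0935, 0.184 and 0.320 CPM, and in ND_TKO held 0.231, 0.371 and 0.489 CPM. HFD_WT held 7.73, 8.01 and 7.27 CPM of Adtrp, and HFD_TKO was below it (log2 change -2.86, adjusted p = 6.27e-08). Cidea, a lipid droplet protein of thermogenic fat, fell from 9.82, 11.2 and 7.80 CPM to at most 3 reads in each HFD_TKO library, and to as few in ND_TKO. HFD_WT held 3.71, 2.74 and 5.19 CPM of Cidea, above HFD_TKO (HFD_TKO minus HFD_WT -2.11, adjusted p = 2.06e-06) and itself below ND_WT (-1.14, adjusted p = 1.76e-04). The fitted changes of Adtrp and Cidea (-3.17 and -3.25, adjusted p = 4.88e-07 and 1.18e-06) depend on the pseudocount at such levels. Kcnj15, Ucp3, Adtrp and Cidea were part of earlier results on these data and were chosen for that reason.

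Others were higher in the TET KO groups on both diets. Plppr4, a membrane protein of neurons (chr3:117319145-117360876), had the largest rise of any gene with a mean of at least 10 CPM, from 0.716, 0.277 and 3.38 CPM in ND_WT to 78.7, 56.7 and 51.8 CPM in HFD_TKO (log2 change 4.88 with SE 0.37, adjusted p = 1.30e-05). ND_TKO held 23.8, 18.4 and 17.1 CPM, and HFD_TKO exceeded it by 1.60 (adjusted p = 0.0105). HFD_WT held 6.68, 6.20 and 3.98 CPM and lay below HFD_TKO (log2 change 3.26, adjusted p = 1.99e-05). Sptlc3, part of serine palmitoyltransferase, the first enzyme of sphingolipid synthesis, was at 0.239 and 0.139 CPM in ND_WT replicates 1 and 2 and had no read in replicate 3, which allows up to 0.137 CPM. It stood at 4.79, 6.43 and 4.84 CPM in HFD_TKO and 21.2, 23.4 and 20.7 CPM in ND_TKO, so the high-fat-fed TET KO libraries were the lower of the 2 (log2 change -1.85, adjusted p = 1.22e-04). HFD_WT held 1.64, 1.59 and 1.73 CPM, above ND_WT (log2 change 1.24, adjusted p = 7.05e-06) and below HFD_TKO by 1.25 (adjusted p = 1.10e-05). The sphingolipid list as a whole had 8 of 28 higher and 8 lower. Fgf13 rose from 13.8, 7.70 and 50.2 CPM to 198, 177 and 198 CPM (log2 change 3.36 with SE 0.46, adjusted p = 4.26e-04), with ND_WT replicate 3 above its replicates. ND_TKO held 159.5, 114 and 113 CPM and HFD_WT 83.7, 87.3 and 66.9 CPM, both above ND_WT (log2 change 2.77 and 2.09, adjusted p = 0.00507 and 0.00209), and HFD_TKO was above HFD_WT by 1.27 (adjusted p = 0.0403).

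A few genes were high in HFD_TKO above all 3 other groups. Rnase2a, of the eosinophil-associated ribonuclease family (chr14:51255261-51256112), stood at 69.5, 37.1 and 46.2 CPM in HFD_TKO and 0.525, 0.277 and 2.65 CPM in ND_WT (log2 change 4.71 with SE 0.37, adjusted p = 1.64e-05). It was at 3.14, 1.30 and 1.38 CPM in ND_TKO and at 0.274 CPM or less in HFD_WT, and HFD_TKO exceeded these groups by 4.15 (adjusted p = 3.09e-04) and 5.51 (adjusted p = 4.53e-07). The family has close copies, so its reads are uncertain. Dio2, which activates thyroid hormone and is known from brown fat, stood at 28.2, 9.10 and 8.27 CPM in HFD_TKO and 0.430, 0.323 and 0.685 CPM in ND_WT (log2 change 3.25 with SE 0.39, adjusted p = 2.26e-04). HFD_TKO replicate 1 was the highest, and the other 2 HFD_TKO libraries still lay above every library of the remaining groups (log2 change 2.21 against ND_TKO and 1.57 against HFD_WT, adjusted p = 0.00359 and 0.00603). Among 23 tested thermogenic genes 10 rose and 5 fell (median 0.33), but Ucp1, Zic1 and Tbx1 were below the minimum. The 5 that fell were Cidea (-3.25) and Ucp3 (-2.50), both given above, Ebf2 (-1.11), Cox8b (-0.87) and Slc6a8 (-0.40). Ebf2, Cox8b and Slc6a8 were named after their values were seen. Ppargc1a, a regulator of mitochondrial genes, had a change of -0.16 (interval -0.76 to 0.44). Ucp2, a relative of Ucp1 also found in immune cells, rose from 159, 184 and 199 CPM to 672, 600.0 and 659 CPM (log2 change 1.83 with SE 0.12, adjusted p = 4.62e-06), against 884 CPM in HFD_WT. Ubd, a ubiquitin-like protein, rose from 4.15, 4.06 and 3.24 CPM to 100.1, 45.9 and 63.1 CPM (log2 change 3.81 with SE 0.26, adjusted p = 6.20e-06) and reached 327, 307 and 289.6 CPM in HFD_WT.

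**Figure D5:**
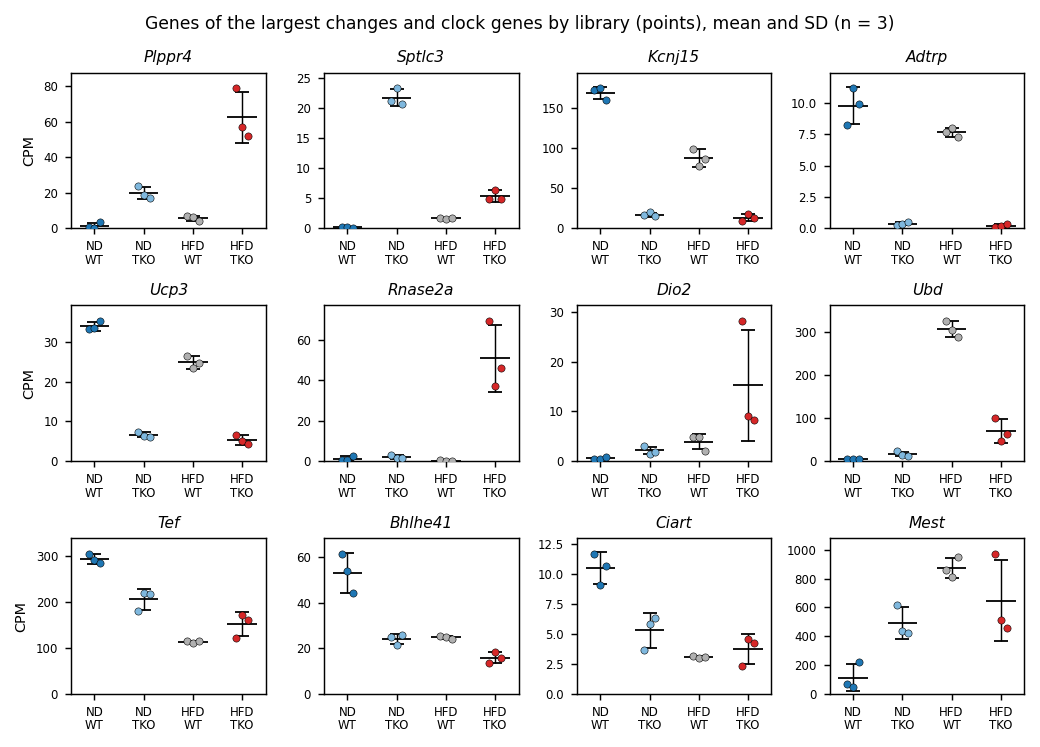
Points are CPM per library (y axis, linear, from 0) in the 4 groups on the x axis, with the group mean and SD (n = 3). Kcnj15, Adtrp and Ucp3 are low in both TET KO groups, Plppr4, Rnase2a and Dio2 are highest in HFD_TKO, and the clock genes Tef, Bhlhe41 and Ciart are highest in ND_WT.

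The remaining large changes at 10 CPM or more include genes of several kinds. Acsm3, a medium-chain acyl-CoA synthetase, fell from 87.8, 136 and 33.5 CPM to 2.70, 6.02 and 5.07 CPM (log2 change -3.79 with SE 0.43, adjusted p = 1.62e-04). Art3, an ADP-ribosyltransferase family member, fell from 373, 369 and 349.7 CPM to 40.3, 46.4 and 40.3 CPM (log2 change -3.08 with SE 0.16, adjusted p = 8.18e-07), and its replicates were tight in both groups. Trf (transferrin), which carries iron, fell from 5807, 5775 and 4577 CPM to 1719.7, 1371 and 1332 CPM (log2 change -1.87 with SE 0.14, adjusted p = 1.11e-05). Slc5a7, the choline transporter, rose from 1.76, 1.11 and 25.6 CPM to 197, 60.8 and 56.8 CPM (log2 change 4.05 with SE 0.80, adjusted p = 0.00288), with a wide spread in both groups. Tuba1a, a tubulin with close relatives, rose from 424, 309 and 1245 CPM to 5539, 2309 and 2340.4 CPM (log2 change 2.50 with SE 0.45, adjusted p = 0.00184). For Acsm3, Slc5a7 and Tuba1a, ND_WT replicate 3 was the ND_WT library nearest to HFD_TKO.

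Lists of markers of other cells and of tissue handling differed in how many members were called. Mesothelial genes, from the lining of the fat pad, fell in 8 of 13 cases with a median of -1.37, and HFD_WT had 9 lower with a median of -1.44. With only the HFD_TKO and ND_WT libraries fitted the 8 came to 3. Upk3b stood at 141, 105 and 154 CPM in ND_WT and 15.6, 75.5 and 68.6 CPM in HFD_TKO (log2 change -1.57 with SE 0.46, adjusted p = 0.0204), with HFD_TKO replicate 1 far below its replicates. The list's sum was 368.5 to 539.0 CPM in ND_WT and 60.5 to 291.5 CPM in HFD_TKO. Immediate early and heat shock genes, which respond within minutes to handling, rose in 9 of 24 cases and fell in 1. Fos stood at 19.6, 2.77 and 8.62 CPM in ND_WT and 63.3, 102 and 131 CPM in HFD_TKO (log2 change 3.39 with SE 0.86, adjusted p = 0.0104), and ranged over 6.92, 85.6 and 12.4 CPM within ND_TKO. Skeletal muscle genes had 2 of 7 lower and red blood cell genes none of 8 in either direction. Endothelial and mural genes had 6 of 28 higher and 5 lower, near the shares of 20.0% and 15.0% over all tested genes. The lower ones included Vegfa (-1.07, adjusted p = 0.00484), and without ND_WT replicate 1 or 2 the lower count was 3. The part of these cells and of handling in the other results was not tested.

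Some groups of genes were held within narrow bounds. All 28 ribosomal protein genes had a 95% interval within 0.5 log2 units, with 2 called lower and a median of -0.09, whereas 24 of them were higher in HFD_WT. Rpl4 stood at 574, 595 and 565 CPM in ND_WT and 553, 534 and 593 CPM in HFD_TKO. Among the most abundant genes within the bounds, Eef1a1 (a translation factor) had a change of -0.03 (interval -0.28 to 0.22) and B2m (the light chain of MHC class I) of 0.10 (interval -0.27 to 0.47). Unfolded protein response genes, by contrast, rose in 13 of 24 cases and fell in 3, with Hspa5, the main chaperone of the endoplasmic reticulum, rising from 411, 441 and 473 CPM to 946, 668 and 734 CPM (log2 change 0.81 with SE 0.12, adjusted p = 5.81e-04). Without ND_WT replicate 1 that list had 5 members higher. Antioxidant and NADPH oxidase genes rose in 10 of 27 cases and fell in 3, and Hmox1, the haem oxygenase, rose from 76.2, 29.4 and 36.8 CPM to 310.3, 92.4 and 98.0 CPM (log2 change 1.67 with SE 0.42, adjusted p = 0.00953). Glycolysis genes rose in 5 of 22 cases, or 8 without ND_WT replicate 3, and fell in 3, near the shares of 20.0% and 15.0% over all tested genes. Tpi1 rose from 389, 346 and 522 CPM to 1216, 792 and 845 CPM (log2 change 1.18 with SE 0.19, adjusted p = 0.00106), whereas Aldoa was not called (0.30, adjusted p = 0.0792).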

How the data were processed

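RNA from epididymal fat was sequenced in 12 libraries, 3 per group of genotype and diet, and titles gave each library its group. The values the authors deposited are CPM per gene and library, named raw CPM per the file headers. Per the submitters' processing notes, the build was mm10 and the tools included STAR (2.7.3a), featureCounts (2.0.0) and also DESeq2, with no statement of which made the CPM. Annotation release, strand setting and multi-mapping are not given in the sources used here, so overlapping, antisense and near-identical genes are uncertain. Of 25232 rows, 3 had no symbol (0.0313% to 0.0679% of a library's CPM) and were left out, and 89 tested genes shared all their values with another gene.

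Deposited CPM were whole multiples of a step after an offset of 0.01 read. With a tolerance of 0.05 read, 100% of values came out as whole reads. A count of 0 allows up to 3 reads, or 0.117 to 0.143 CPM by library, for counting error only. Genes with at least 0.5 CPM in at least 3 libraries entered limma 3.58.1 (R 4.3.3), trend on, as log2(CPM + 1). All 12 libraries were fitted with 1 mean per group (8 residual degrees of freedom), p-values were adjusted by Benjamini-Hochberg over 15597 genes, and genes were called at 0.05. On simulated data for the comparison of HFD_TKO with ND_WT (15597 genes), the test recovered 96% of 100 genes changed 2-fold and 40% of 100 changed 1.5-fold, with 12 false calls, at an assumed dispersion of 0.02.

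Genes of lists and of a panel, and the lists themselves, were chosen with earlier results of these data known. Genes named were the panel, the 12 largest non-overlapping called changes per direction at 10 CPM or more, the 5 largest changes in mean CPM per direction, the 3 largest called changes and the most abundant gene of each list, and the 5 most abundant genes within 0.5 log2 units, with some left out for room. Alternatives were the scaling, pseudocount, filter, libraries fitted, replicate block, each replicate left out, and edgeR 4.0.16, limma-voom and DESeq2 1.42.0 on the recovered reads. Coordinates and promoter windows are RefSeq, GRCm38.p6. A few named genes are not reported here.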

Additional observations from a re-analysis of the deposited data

How the results depend on the processing

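No called gene changed sign under any setting in which it was also called. Fitting only the 6 libraries of HFD_TKO and ND_WT left 2086 genes higher and 1510 lower, of which 3566 were also called with all 12. In that fit the lower mesothelial members came from 8 to 3, beta-adrenergic ones from 10 to 6, respiratory chain and fatty acid oxidation ones from 7 to 3 each, and complement ones from 8 to 5. The higher members of fatty acid synthesis came from 9 to 4, of complement from 7 to 4, of endothelial genes from 6 to 3 and of the unfolded protein response from 13 to 7. Genes called at 2-fold or more came to 658 higher and 689 lower with a pseudocount of 0.1, to 198 and 178 with a pseudocount of 5, to 610 and 739 with edgeR, to 630 and 743 with limma-voom and to 622 and 757 with DESeq2. Genes with an interval within 0.5 log2 units came to 10521 with a pseudocount of 5 and to 11380 with no filter. TMM scaling gave 2872 higher and 2728 lower. On the recovered reads edgeR called 2813 higher and 2697 lower. With 1 library left out, genes called lower ran from 1484 to 2733, genes called higher from 2210 to 3685, and 2-fold calls from 263 to 577 higher and from 290 to 514 lower. Replicate numbers did not pair the samples (correlations of the deviations of same-numbered libraries -0.30, -0.12 and 0.08), and with the replicate block 2988 genes were higher and 2218 lower. Gene list counts of 0 to 2 members lay between 0 and 4 with any 1 library left out. The cause of the changes with single libraries was not tested. At these depths low genes are limited by counting error, and the median half-width of the 95% interval was 0.29 log2 units.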

Other observations

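A list of adipokines and other secreted adipocyte factors had 4 of 22 tested members higher and 6 lower in HFD_TKO, with a median of 0.09, and 10 higher without ND_WT replicate 3. Of 10 neural and Schwann cell genes 3 were higher (5 without ND_WT replicate 3) and 2 lower, and the neurofilament genes Nefl and Nefm stayed at or below 1.65 CPM in the 6 libraries. A list of neuronal-type genes drawn from earlier results on these data had 6 of 16 higher and 7 lower, with a median of -0.18.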
